A study of Mus musculus with 16 samples.

Results

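The genes described here are 6 genes of cyclic AMP (cAMP) feedback, taken by symbol from the table of counts, where all 6 were found among 14829 genes. They are Crem, whose cAMP-inducible products repress transcription, the cAMP phosphodiesterases Pde4a, Pde4b, Pde4d and Pde3b, and Sik1, a salt-inducible kinase. They were measured by RNA sequencing in hematopoietic stem cells (HSCs), which form all blood cells, from 4 young and 4 old mice. Bone marrow taken directly from the mouse was kept at 37 °C for 1 hour in dmPGE2 (an analogue of prostaglandin E2 that lasts longer) or in vehicle, and the stem cells were then sorted. The cells of each mouse were divided between both treatments, which gave 16 libraries in 4 groups of 4: young vehicle, young dmPGE2, old vehicle and old dmPGE2. The labels give age only as young or old, and strain, genotype and dose are not stated there. The mice were separate animals. For dmPGE2 the p-values measure how the change within a mouse varies between mice, and for age they measure the spread between mice.

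Prostaglandin E2 acts in part through Gs-coupled receptors that raise cAMP, which activates protein kinase A. Protein kinase A phosphorylates the transcription factor CREB, and CREB with its CRTC co-activators switches on early genes. Some of those genes feed back on the signal: PDE4 and PDE3 enzymes break cAMP down, short Crem products such as ICER occupy CREB's DNA sites without activating them, and SIK kinases hold CRTC proteins in the cytoplasm. In blood stem cells, prostaglandin E2 is known for effects on survival, homing and number.

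A pair of promoter stretches shows the letters that CREB is known to bind, in a gene that rose after dmPGE2 (Pde4b) and in a gene that was not called (Pde4a). They are the 250 bases before an annotated start, from RefSeq on GRCm38.p6, on the + strand, written 5′ to 3′, with the CRE core CGTCA in capitals. The Pde4b stretch is chr4:102421305-102421554 and the Pde4a stretch is chr9:21183851-21184100.
Pde4b: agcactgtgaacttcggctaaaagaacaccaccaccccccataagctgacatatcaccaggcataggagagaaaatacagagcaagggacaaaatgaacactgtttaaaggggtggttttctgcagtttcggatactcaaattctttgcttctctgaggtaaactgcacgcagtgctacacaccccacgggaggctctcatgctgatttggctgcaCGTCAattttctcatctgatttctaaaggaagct
Pde4a: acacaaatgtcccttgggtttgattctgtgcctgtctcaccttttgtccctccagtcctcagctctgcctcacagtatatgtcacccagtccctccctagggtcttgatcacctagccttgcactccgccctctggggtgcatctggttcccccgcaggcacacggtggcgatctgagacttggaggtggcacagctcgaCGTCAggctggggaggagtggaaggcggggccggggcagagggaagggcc
The core begins 34 bases before the start in Pde4b and 50 bases before it in Pde4a. The GENCODE annotation has no start close to this Pde4b start, but does have a start close to that of Pde4a. Windows of 250 bases before to 50 bases after a start were present for Pde4a (3), Pde4b (4) and Pde4d (1). Crem, Pde3b and Sik1 had no window. CGTCA, searched on both strands, was in these 2 of the 8 windows, against 20.8% of all 32851 windows of the table. The Pde4b windows at starts 102587558 and 102589843, which lie close to GENCODE starts, held no CGTCA. The same was true of the other Pde4a windows and of the Pde4d window. The full site TGACGTCA, a palindrome that contains CGTCA, was in 0 of the 8, against 1.79% of all windows. A match of letters is a description of the window and not a binding site.

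The files place the genes on build mm10. Pde4a lies on chromosome 9 from 21165714 to 21213248, Pde4b on chromosome 4 from 102254742 to 102607262, and Pde4d on chromosome 13 from 108654177 to 109955969. Pde3b lies on chromosome 7 from 114415254 to 114537937 and Sik1 on chromosome 17 from 31844250 to 31855792, on the - strand. Each phosphodiesterase gene here is on the + strand. The counts are per gene, so products from different starts were added together.

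Across the 8 mice, Crem and Pde4b were called higher after dmPGE2 in the main fit, and the Sik1 call depended on the fit. Pde4a, Pde4d and Pde3b were not called. Changes are given as log2 of the dmPGE2 level over the vehicle level with the standard error (SE). Here they come from the main fit, with the mouse as a block and a dmPGE2 term per age. A gene is called at an adjusted p under 0.05 in the quasi-likelihood test of edgeR (Benjamini-Hochberg over all genes tested). Crem rose 2.5-fold (log2 1.32 ± 0.19, adjusted p = 0.0142) and Pde4b 1.65-fold (0.72 ± 0.10, adjusted p = 0.0126). Sik1 had the largest value of the 6 and the widest error, 2.02 ± 0.68 (adjusted p = 0.306). The libraries carry 1 of 2 dates, and the main fit held no dmPGE2 term per date. With a dmPGE2 term for each age and date, edgeR called Sik1 over all mice (2.04, adjusted p = 5.65e-11). DESeq2 without date terms called it too (adjusted p = 0.00921). Pde4d had 0.24 ± 0.14 (adjusted p = 0.535), Pde3b 0.09 ± 0.10 (adjusted p = 0.796) and Pde4a -0.07 ± 0.08 (adjusted p = 0.790). So 2 of 6 were called in the main fit, against 0.61% of the 13942 genes tested. The 6 genes were chosen with earlier results of these data known. Their counts against all genes, here and below, are therefore a description and not a test. The median over the 6 was 0.48 against -0.00 over all genes tested. With a dmPGE2 term for each age and date, 3 of 6 were called, among 347 genes called in all. The Crem call was lost without any 1 of mice 477, 478, 479 and 480, and the Pde4b call without 477, 478 or 479, at adjusted p up to 0.0959. Sik1, Crem and Pde4b were higher with dmPGE2 in 8 of 8 mice, which held for 1.94% of the genes tested. Pde4d and Pde3b were higher in 5 of 8 mice and Pde4a in 4 of 8.

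**Figure D1:**
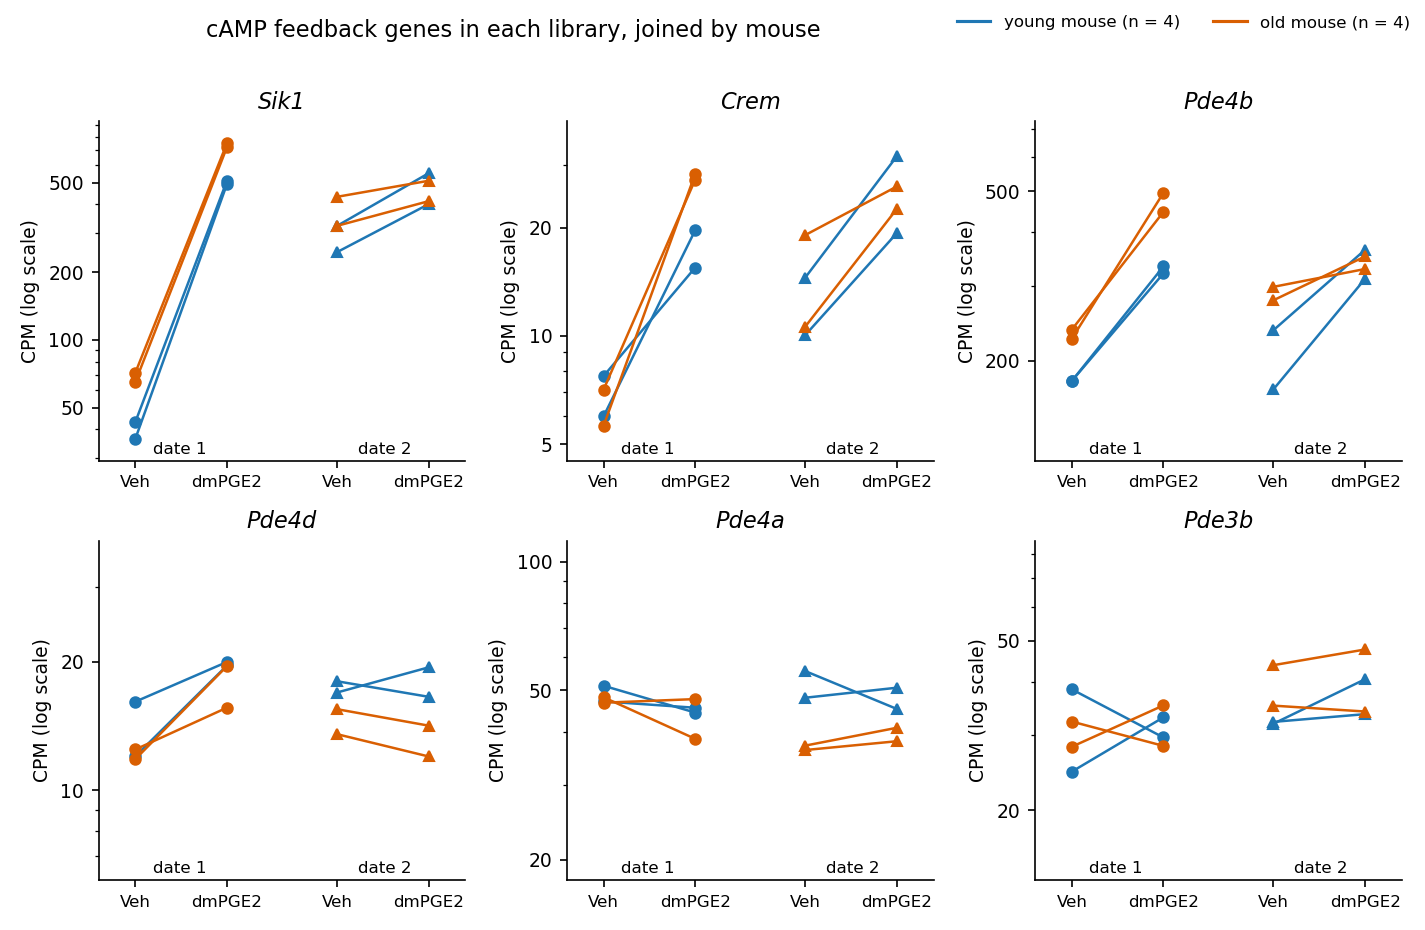
Normalised read count of each gene in each library (CPM, log scale), with the vehicle and dmPGE2 libraries of a mouse joined by a line, circles for date 1, triangles for date 2, blue for young and orange for old mice. The lines of Sik1, Crem and Pde4b rise in all 8 mice, and the Sik1 vehicle points of date 1 (36.3 to 71.4 CPM) lie below those of date 2 (245 to 432 CPM).

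The wide error of Sik1 went with the dates. Each sample description holds 1 of 2 dates, here date 1 and date 2, and each date has 2 mice of either age. What was done on those dates is not stated. With 2 dates, p-values for differences between them measure the spread of mice and not that of dates. Library totals were 16.7 to 19.2 M counts on date 1 and 12.96 to 15.7 M on date 2. Stem cell markers were present on both dates (10 of 10 in the table), with a summed level in vehicle libraries of 4789 to 5724 CPM on date 1 and 3401 to 4526 CPM on date 2. Neutrophil markers (10 of 10) summed to 5.91 to 14.7 CPM on date 1, with Lcn2 and Mmp8 at no more than 3 counts in each vehicle library, and to 1714 to 4195 CPM on date 2. Monocyte markers (10 of 10) summed to 541 to 710 and 1005 to 1691 CPM, and T and NK cell markers (9 of 10) to 28.2 to 86.9 and 146 to 305 CPM. Erythroid markers (6 of 10) summed to 1748 to 2012 and 2062 to 3026 CPM, and B cell markers (9 of 10) to 47.05 to 58.9 and 56.5 to 85.3 CPM. Of the T and NK cell markers, Cd3d, Cd3e, Cd3g, Cd8a and Klrd1 had no more than 3 counts in each vehicle library of date 1. The B cell markers Igll1, Ebf1 and Pax5 were as low there. The part of depth or of other cells in the results by date was not tested. In sorted bulk samples, fewer cells of a type and less RNA per cell cannot be told apart.

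Sik1 encodes a kinase whose gene is an early CREB target. In vehicle libraries of date 1 it stood at 43.1 (mouse 477), 36.3 (478), 65.1 (479) and 71.4 CPM (480), and with dmPGE2 at 510, 493, 719 and 748 CPM in the same order. In vehicle libraries of date 2 it stood at 321 (mouse 483), 245 (484), 432 (485) and 321 CPM (486), and with dmPGE2 at 550, 401, 509 and 413 CPM. All date 1 vehicle libraries were lower than every other library, and on date 2 the vehicle and dmPGE2 ranges overlapped. The log2 change was 3.55 ± 0.06 on date 1 (11.7-fold, adjusted p = 1.14e-11) and 0.52 ± 0.05 on date 2 (1.44-fold, adjusted p = 0.000877), from a fit in which every age and date had its own dmPGE2 term. The difference between the dates was 3.03 ± 0.08 (adjusted p = 1.3e-09). By single mice the change ran from 3.39 to 3.76 on date 1 and from 0.24 to 0.78 on date 2.

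Crem had the lowest level per length of the 3 genes that rose on date 1. The length is that of all merged exons of a gene, so shorter products such as ICER were not scaled to their own length. Its vehicle levels on date 1 were 7.73, 5.97, 5.62 and 7.09 CPM in mice 477, 478, 479 and 480, and its dmPGE2 levels 15.5, 19.7, 28.3 and 27.2 CPM. On date 2 the vehicle levels were 14.5, 10.05, 19.1 and 10.6 CPM in mice 483, 484, 485 and 486, and the dmPGE2 levels 31.6, 19.3, 26.1 and 22.6 CPM. The treatments did not overlap on either date, although the highest vehicle library of date 2 (mouse 485) reached above the lowest dmPGE2 library of date 1 (mouse 477). Crem rose on date 1 (1.75 ± 0.19, adjusted p = 0.000165), and its date 2 value was 0.90 ± 0.19 (adjusted p = 0.0893). The difference of 0.85 ± 0.26 between the dates was not called (adjusted p = 0.281). Crem lies on chromosome 18 from 3266354 to 3337589 on the - strand and shares exon bases with the antisense gene Gm6225 in the GENCODE annotation. How many bases they share was not measured, and among the genes counted here 0 shared exon bases with Crem. The strand used in counting is not given, so reads in the bases shared with Gm6225 cannot be assigned to either gene. ICER and longer Crem products cannot be told apart in these counts.

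Pde4b encodes a PDE4 enzyme of immune and blood cells. Its vehicle levels on date 1 were 179, 179, 237 and 225 CPM in mice 477, 478, 479 and 480, and its dmPGE2 levels 333, 321, 447 and 496 CPM. On date 2 the vehicle levels were 236, 171, 277 and 298 CPM in mice 483, 484, 485 and 486, and the dmPGE2 levels 364, 311, 351 and 328 CPM. The treatments did not overlap on either date or over all 16 libraries. Pde4b rose on date 1 (0.95 ± 0.06, adjusted p = 2.47e-06) and on date 2 (0.49 ± 0.06, adjusted p = 0.00418; adjusted p = 0.0599 without mouse 485). The difference between the dates was 0.46 ± 0.09 (adjusted p = 0.0352), and leaving out any 1 mouse other than 484 took that call away, at adjusted p from 0.0504 to 0.238.

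The other 3 phosphodiesterase genes were not called on either date. Pde4d, which encodes a PDE4 enzyme of many tissues, had vehicle levels of 16.1, 12.0, 12.4 and 11.8 CPM on date 1 and dmPGE2 levels of 19.98, 19.6, 15.6 and 19.5 CPM. All 4 mice of date 1 were higher with dmPGE2, and the ranges overlapped. On date 2 its vehicle levels were 18, 16.9, 15.5 and 13.5 CPM and its dmPGE2 levels 16.5, 19.4, 14.2 and 12.0 CPM, with 1 of 4 mice higher. Its change was 0.52 ± 0.17 on date 1 (adjusted p = 0.163) and -0.06 ± 0.17 on date 2, with a difference between the dates of 0.58 ± 0.24 (adjusted p = 0.462). Pde4a, also a PDE4 gene, ranged from 36.2 to 55.5 CPM in vehicle and from 38.0 to 50.7 CPM in dmPGE2 libraries, with changes of -0.13 ± 0.11 on date 1 and -0.00 ± 0.11 on date 2. Pde3b, whose enzyme is inhibited by cGMP, ranged from 24.6 to 43.8 and from 28.3 to 47.7 CPM, with changes of 0.05 ± 0.15 and 0.12 ± 0.15. In all, 3 of 6 genes rose on date 1, against 2.93% of all genes tested called, 2 of 6 on date 2, against 0.387%, and 2 of 6 differed between the dates, against 1.08%.

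**Figure D2:**
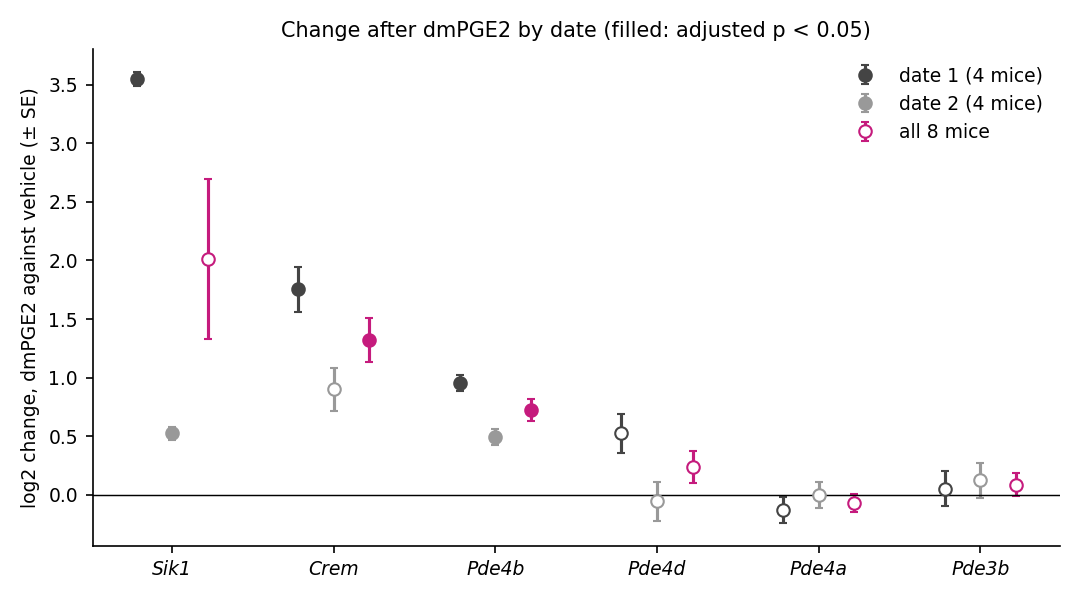
Log2 change after dmPGE2 with its SE for each gene on date 1, on date 2 (4 mice each) and over all 8 mice, filled where the adjusted p was under 0.05. Sik1 has 3.55 on date 1 and 0.52 on date 2, while Pde4a and Pde3b lie near 0 throughout.

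The vehicle libraries differed between the dates for the genes that rose most. Sik1 was 2.64 ± 0.13 higher on date 2 than on date 1 in vehicle (6.24-fold, adjusted p = 5.31e-07), and Crem 1.03 ± 0.26 higher (2.04-fold, adjusted p = 0.0267), in an edgeR fit with age. The Crem call was lost without mouse 478, 479, 480, 483 or 485 (adjusted p up to 0.0865). Pde4b had 0.25 ± 0.09 (adjusted p = 0.119), and was called without mouse 484 (0.34, adjusted p = 0.0129). With these, 2 of 6 genes were called in vehicle, against 11% of 13369 genes. In dmPGE2 libraries 0 of 6 were called, against 11.7% of 13279 genes. There Sik1 was -0.39 ± 0.13 (adjusted p = 0.0857; -0.54, adjusted p = 0.00821, without mouse 483), Pde4b -0.23 ± 0.10 and Crem 0.15 ± 0.20. These comparisons were added after the levels had been seen, and the vehicle and dmPGE2 libraries come from the same mice.

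Compared per length of exon, the order of the 6 genes in vehicle differed between the dates. On date 1, Pde4b was highest with 34.0 ± 5.0 CPM per kb (SD, n = 4), above Sik1 with 12.0 ± 3.75 and Pde4a with 9.42 ± 0.398. On date 2, Sik1 was highest with 73.2 ± 17.1 and Pde4b followed with 40.7 ± 9.26. With dmPGE2, Sik1 led on both dates, with 137 ± 29.9 and 104 ± 16.2 CPM per kb. Pde3b had 5.84 to 7.38 CPM per kb as a mean over the 4 combinations of date and treatment. Pde4d and Crem were lowest in vehicle on date 1, with 1.86 ± 0.288 and 1.55 ± 0.230, and their libraries overlapped. With dmPGE2 on that date Crem reached 5.33 ± 1.44 and Pde4d 2.65 ± 0.292.

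**Figure D3:**
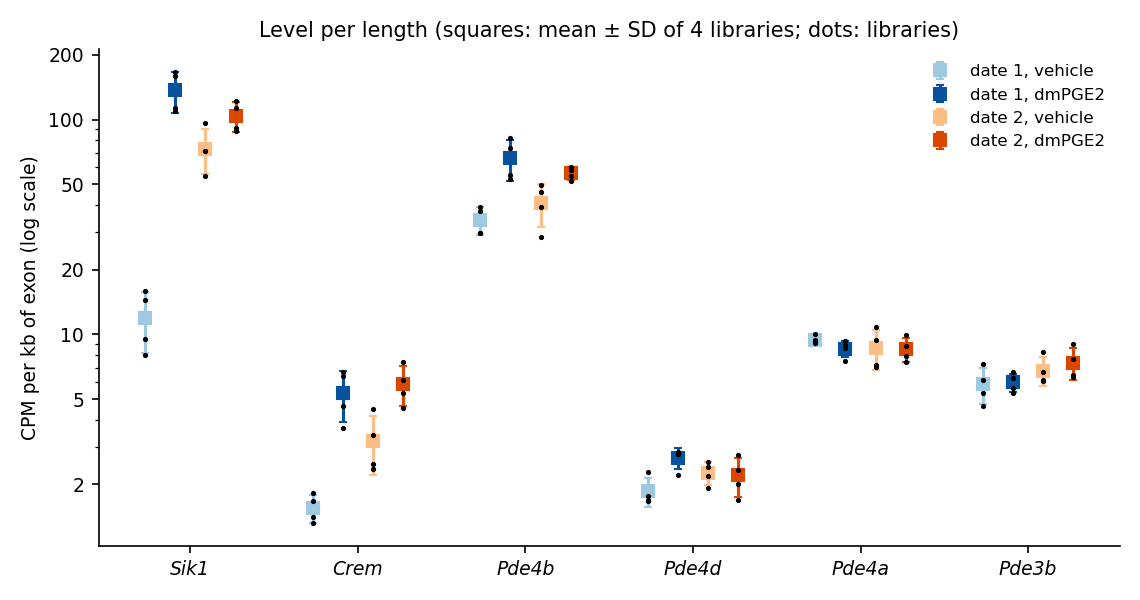
Level per length (CPM per kb of exon, log scale) of each gene by date and treatment, with squares for the mean, bars for the SD of 4 libraries and dots for single libraries. Sik1 in date 1 vehicle (12.0 CPM per kb) lies below Sik1 in the other 3 combinations, and the means of Pde4a lie between 8.52 and 9.42 CPM per kb, with single libraries from 7.06 to 10.8.

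The next question was whether young and old mice responded differently. In old mice, Crem had a log2 change of 1.45 ± 0.27 (adjusted p = 0.152), Pde4b 0.64 ± 0.14 (adjusted p = 0.217) and Sik1 1.86 ± 0.97 (adjusted p = 0.747). In young mice the values were 1.2 ± 0.27 (adjusted p = 0.147), 0.81 ± 0.14 (adjusted p = 0.0946) and 2.18 ± 0.96 (adjusted p = 0.426). In this main edgeR fit, without a dmPGE2 term per date, none of the 6 genes and 0% of all genes were called in either age. At an unadjusted p under 0.05 there were 1096 genes in old and 1785 in young mice, DESeq2 called 114 and 269, and limma-voom called 0 in both. With a separate dmPGE2 term per age and date, edgeR called 210 genes in old and 257 in young mice, of 13942 tested. Crem, Pde4b and Sik1 were among them in both ages (adjusted p up to 0.00557), which is 3 of 6. In the main fit Pde4b was called in young mice without mouse 480 (adjusted p = 0.0412, 2 genes called in all) or 486 (adjusted p = 0.0384, 4 genes).

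The test of the difference between the ages called 0 of 6 genes and 0% of all genes (955 at an unadjusted p under 0.05, 14 by DESeq2, 0 by limma-voom). Old minus young, the difference was 0.25 ± 0.38 for Crem, -0.16 ± 0.19 for Pde4b and -0.32 ± 1.35 for Sik1, with adjusted p of at least 0.907. That fit held no dmPGE2 term per date, while the Sik1 change differed by 3.03 between the dates, so its error is wide. With a dmPGE2 term for each age and date, 0 of 6 genes were called, and 1 gene of all tested. Within date 1 the difference between the ages was 0.78 ± 0.37 for Crem (adjusted p = 0.951) and -0.22 ± 0.11 for Sik1 (adjusted p = 0.970), where 0.0359% of genes were called. Within date 2 it was -0.44 ± 0.11 for Sik1 and -0.50 ± 0.13 for Pde4b (adjusted p = 0.442 for both), where 0% were called (1063 at an unadjusted p under 0.05, 33 by DESeq2, 0 by limma-voom). Neutrophil markers on date 2 summed to 1714 to 1906 CPM in old and 2969 to 4195 CPM in young libraries, and their part in these values was not tested.

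Without dmPGE2, Sik1 and Pde4b were higher in old than in young mice. In a fit of the 8 vehicle libraries with a term for date, Sik1 was 1.48-fold higher (0.57 ± 0.13, adjusted p = 0.0121) and Pde4b 1.33-fold higher (0.41 ± 0.09, adjusted p = 0.0123). These are 2 of 6 genes, against 17.3% of all genes called. Summed marker levels also differed between the ages, here over the libraries of both treatments. On date 2, old libraries had 4518 to 4611 CPM of stem cell markers and young libraries 3401 to 3626 CPM. Old libraries of date 2 were lower for erythroid markers (1972 to 2085 against 2884 to 3026 CPM), T and NK cell markers (146 to 200 against 285 to 326 CPM) and neutrophil markers (1714 to 1906 against 2969 to 4195 CPM). On date 1, neutrophil markers had 5.91 to 7.83 CPM in old and 11.6 to 35.8 CPM in young libraries, T and NK cell markers 25.3 to 49.1 and 55.7 to 86.9 CPM, while stem cell and erythroid markers overlapped. Their part in the age difference was not tested. On date 1, both old mice lay above both young mice for Sik1 and for Pde4b. On date 2 the same held for Pde4b, while Sik1 was 321 CPM in young mouse 483 and old mouse 486. The Sik1 call was lost without mouse 485 (0.52, adjusted p = 0.0521), and both calls were lost without the date term. The remaining vehicle values were -0.29 ± 0.12 for Pde4a (adjusted p = 0.129), -0.26 ± 0.17 for Pde4d, 0.10 ± 0.16 for Pde3b and 0.06 ± 0.26 for Crem. With dmPGE2, 0 of 6 genes were called between the ages, against 14.3% of all genes. Pde4b then had 0.26 ± 0.10 (adjusted p = 0.125) and Sik1 0.24 ± 0.13 (adjusted p = 0.262), and both were called without mouse 483 (0.35 and 0.40, adjusted p = 0.0310 and 0.0236).

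By age and treatment, Sik1 averaged 161 ± 144 CPM in young vehicle, 222 ± 184 in old vehicle, 488 ± 63.1 in young dmPGE2 and 597 ± 162 in old dmPGE2 (SD, n = 4). Each neighbouring pair of these groups overlapped. Here each group pools both dates, and the overlaps do not use the pairing of libraries by mouse. Pde4b averaged 191 ± 29.9, 259 ± 34.2, 332 ± 23.0 and 406 ± 79.0 CPM in the same order, and only the step from old vehicle to young dmPGE2 had no overlap. Crem averaged 9.57 ± 3.71, 10.6 ± 6.03, 21.5 ± 6.99 and 26.0 ± 2.47 CPM, with overlap at each step. For Pde4d and Pde3b neighbouring groups also overlapped, between 13.3 and 18.9 CPM and between 31.8 and 36.3 CPM on average, and for Pde4a between 41.2 and 50.5 CPM.

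The rest of the pathway was read from 5 lists of genes, chosen with earlier results of these data known. Of 10 other cAMP phosphodiesterases tested, 0 were called after dmPGE2 over all mice or on either date, with a median change of 0.03 over all mice. Pde2a, an enzyme stimulated by cGMP, had 0.17 ± 0.08 on date 1 and 0.21 ± 0.08 on date 2, and Pde7a -0.10 ± 0.11 and 0.12 ± 0.11. Of 10 partners and targets of SIK kinases, 0 were called, with a median of -0.00. Among them Sik2 and Sik3, the other salt-inducible kinases, had -0.12 ± 0.14 and -0.04 ± 0.09 on date 1, against 3.55 for Sik1. Of 8 CREB family and co-activator genes, 0 were called (median 0.08), and of 10 genes of protein kinase A inhibition and receptor desensitisation, 0 were called (median -0.05). For each of these lists the count was also 0 on date 1 and on date 2. Of all genes tested, 0.61% were called over all mice, 2.93% on date 1 and 0.387% on date 2. Counts of 0 in lists this short are near those shares.

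In the list of other early cAMP-CREB targets most genes rose on date 1. This list too was chosen with earlier results of these data known, so its counts are a description and not a test. Of 15 tested, 13 rose on date 1, against 2.93% of all genes called, and 7 on date 2, against 0.387%. Between the dates 13 differed, against 1.08%, and 0 fell. The median change was 2.08 on date 1 and 0.52 on date 2. Over all mice 1 of 15 was called in the main fit, against 0.61% of all genes. It was the small GTPase gene Gem (0.86 ± 0.16, adjusted p = 0.0488), although the median of the list was 1.29. Nr4a1, a nuclear receptor gene, rose by 6.10 ± 0.08 on date 1 and by 0.83 ± 0.07 on date 2. Rgs2, a regulator of G protein signaling, rose by 2.71 ± 0.06 and 0.49 ± 0.06. Junb and Egr1, transcription factor genes, rose by 2.08 ± 0.05 and 1.90 ± 0.04 on date 1 and by 0.51 ± 0.05 and 0.52 ± 0.04 on date 2. In vehicle libraries 12 of 14 genes of this list were called higher on date 2 than on date 1, against 11% of all genes called.

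**Figure D4:**
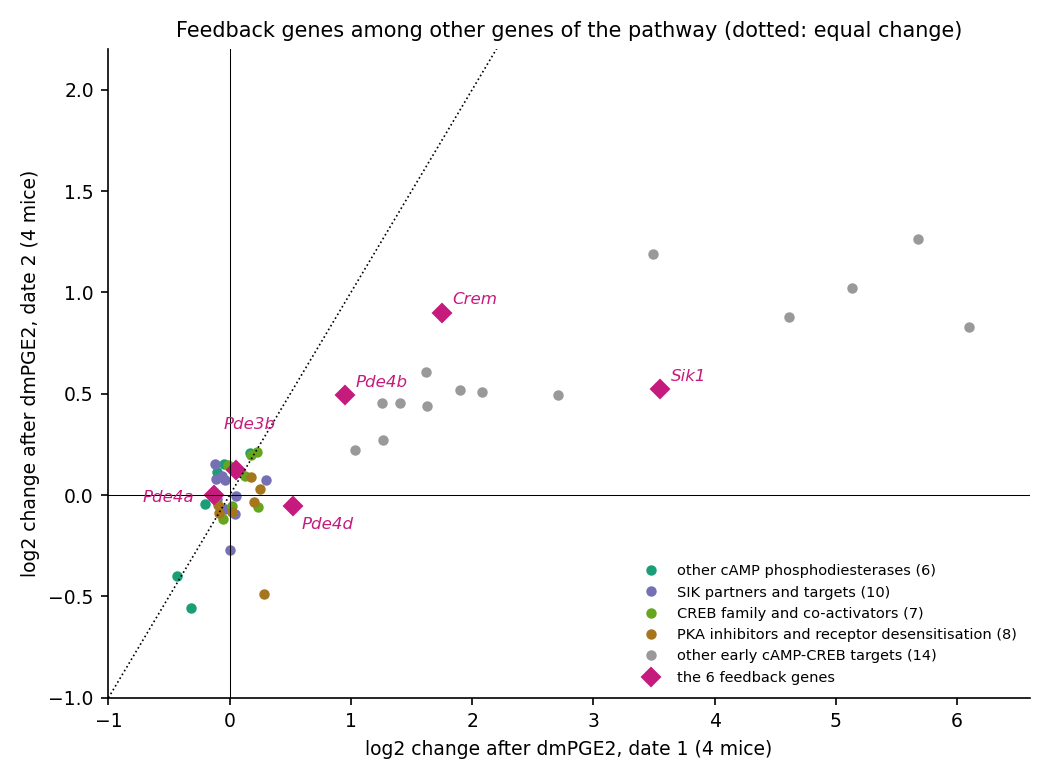
Log2 change after dmPGE2 on date 1 (x axis) and date 2 (y axis) for the 6 feedback genes and for 45 pathway genes with a mean of at least 2 CPM, coloured by list. Sik1 lies far to the right of the dotted line of equal change, with the other early targets, while Pde4a and Pde3b lie near 0 on both axes.

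Genes most like each member were taken by Pearson's r over 8 mice, among 10680 genes with a mean log2 CPM of at least 2. For the genes whose change was compared, the points fall into the 2 dates, so a high r can mean only a shared difference between the dates. The change of Sik1 was most like those of Nr4a1 (r = 0.998), Hes1 (0.996) and Fosl2 (0.994), and 120 genes had an r above 0.9. Pde4b was closest to Tmed5 (0.973), Trim58 (0.961) and March7 (0.945), with 14 genes above 0.9. Crem was closest to Usp49 (0.945), Hmga2 (0.942) and Fancd2 (0.940), with 12 above 0.9, and Pde4d to Chpf (0.965), Chmp1b (0.958) and Nfkbiz (0.956), with 27. How many of 10680 genes pass 0.9 over 8 points without any relation was not tested. A high r also does not mean a like response, as Crem and Pde4b rose in all 8 mice. The lowest change was -0.67 for Usp49, -0.28 for Hmga2, -0.76 for Fancd2, -1.73 for Trim58 and -0.23 for March7, against 0.09 for Tmed5. Pde4a and Pde3b were compared by their level in the 8 vehicle libraries: Pde4a was closest to Adrbk1 (0.933), Ext1 (0.932) and Ranbp9 (0.931), and Pde3b to genes that include Ensa (0.955) and Yod1 (0.898). Between members, the changes of Sik1 correlated at 0.869 with Pde4d, 0.769 with Pde4b and 0.739 with Crem, at -0.105 with Pde3b and at -0.433 with Pde4a.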

How the data were processed

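The deposited table gave raw read counts per gene for 16 libraries, made by the authors with no normalization. Per the submitters' processing notes, STAR 2.5.2b, featureCounts, Subread 1.5.1 and build mm10 were used. The strand setting is not given in the sources used here. The table held 14829 genes, each above 0.5 CPM in at least 2 libraries, and library totals of 12960704 to 19226963 counts. Counts were tested with edgeR 4.0.16 in R 4.3.3 (TMM, filterByExpr, robust quasi-likelihood), with mouse as a block and a dmPGE2 term per age (6 residual degrees of freedom) or per age and date (4). Ages and dates were compared within a treatment in a fit of 8 libraries with age and date (5 residual degrees of freedom). CPM (counts scaled to library size) used TMM factors, and log2 CPM used a prior count of 1. CPM per kb used the table's exon length. The SE is the absolute log2 change over the square root of F. The script was tested on simulated data. DESeq2 1.42.0, limma-voom (limma 3.58.1), RLE scaling, no filter, no block, other date terms and leaving out each mouse were alternatives. Libraries were paired by mouse, as the labels give it. Deviations from the group means gave r of 0.348 to 0.595 within a mouse, and those from group and date means 0.00686 to 0.162. No 2 libraries of a group were duplicates (chi-square per gene of at least 6.35 in 24 pairs). The members and lists were chosen with earlier results of these data known. The 6 members are always given. From each list up to 4 called genes are named by smallest date 1 p, and a few list genes were named after their values were seen (Gem, Pde2a, Pde7a, Sik2, Sik3). Of the genes most like each member, up to 3 are named by r, and 1 is not reported here.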

Additional observations from a re-analysis of the deposited data

Results flagged for a closer look

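The change after dmPGE2 differed between the dates by the test of the difference itself for Sik1 (log2 difference 3.03) and for Pde4b (0.46). A check of whether the highest or lowest of 4 libraries lay apart from the rest singled out 2 of 24 groups, where chance gives about 1 in 20. Pde4b in young vehicle was highest in mouse 483, at 236 CPM, far from the other mice of the group. Pde4d in young dmPGE2 was lowest in mouse 483, at 16.5 CPM, with the other 3 close together.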

How the results depend on the processing

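The 6 genes gave 78 results by comparison, which were recomputed 1126 times under other settings: 1042 values kept their direction and side of the threshold, 27 lost a call, 20 gained one and 37 changed sign. Values that changed sign were small (up to 0.35 on the log2 scale) and not called (adjusted p of at least 0.728). The cause of these shifts was not tested. The fits rest on 8 mice and 4 to 6 residual degrees of freedom, and whether depth or the spread between mice limits the calls was not tested.

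With DESeq2 the genes called were 447 over all mice (85 in edgeR), 114 in old mice and 269 in young mice (0 and 0), 131 on date 2 (54), 241 between the dates (151), 14 between the ages (0), and 39 and 33 between the ages within date 1 and date 2 (5 and 0). DESeq2 also called Sik1 over all mice (2.04), Crem on date 2 (0.90), Crem in old mice (1.45) and young mice (1.19), Pde4b in young mice (0.80) and Sik1 between the dates with dmPGE2 (-0.38). limma-voom called 225 genes over all mice and Crem on date 2 (0.89). Without robust dispersion 144 genes were called over all mice.

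With a dmPGE2 term for each age and date, 347 genes were called over all mice, 210 in old mice, 257 in young mice and 1 between the ages. That fit called Sik1 over all mice (2.04), Crem (1.46), Pde4b (0.64) and Sik1 (1.87) in old mice, and Crem (1.2), Pde4b (0.81) and Sik1 (2.2) in young mice. Date 1 fitted alone gave 725 genes. Without the date term, 971 genes differed between the ages in vehicle and 804 with dmPGE2, and Pde4b (0.42) and Sik1 (0.44) were not called in vehicle. Without the age term, 559 genes differed between the dates in vehicle and 556 with dmPGE2, and Crem was not called in vehicle (1.03, adjusted p = 0.0605).

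Without the replicate block, with date in place of mouse, 175 genes were called over all mice, 10 on date 2 and 0 between the ages within date 1. The calls of Pde4b (0.49, adjusted p = 0.0648) and Sik1 (0.52, adjusted p = 0.157) on date 2 and of Pde4b between the dates (0.47, adjusted p = 0.146) were lost without the block. Pde4a between the ages within date 1 was 0.0025 without the block and 0.0015 in limma-voom, against -0.0058.

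Leaving out 1 mouse at a time gave 0 genes (without 477) to 166 (without 485) over all mice, with 2 without 478, 1 without 479 and 5 without 480. It gave 236 to 446 genes on date 1, 100 to 160 between the dates, 0 to 4 in young mice, 0 to 2 between the ages, and 0 to 8 and 0 to 1 between the ages within date 1 and date 2. Between the ages it gave 1448 to 2129 genes in vehicle and 1104 to 2167 with dmPGE2, and between the dates 902 to 1346 and 694 to 1864.

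Over all mice Crem then ran from 1.17 to 1.49 and Pde4b from 0.64 to 0.81, and Pde4b from 0.43 to 0.55 on date 2, from 0.40 to 0.52 between the dates and from 0.77 to 0.87 in young mice. Between the dates in vehicle, Crem ran from 0.80 to 1.16 and Pde4b from 0.15 to 0.34, and with dmPGE2 Crem from -0.076 to 0.29, Sik1 from -0.54 to -0.25 and Pde4a from -0.089 to 0.051. Between the ages with dmPGE2, Pde4b ran from 0.19 to 0.35, Sik1 from 0.17 to 0.40 and Pde3b from -0.035 to 0.16. In vehicle Sik1 ran from 0.49 to 0.70, Crem from -0.17 to 0.19 and Pde3b from -0.0030 to 0.28.

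The difference in response between the ages ran from -0.039 to 0.59 for Crem, from -0.34 to 0.0043 for Pde4b, from -0.93 to 0.30 for Sik1, from -0.22 to 0.053 for Pde3b and from -0.26 to 0.069 for Pde4d. Within date 1 it ran from -0.35 to 0.45 for Pde3b, from -0.19 to 0.16 for Pde4a and from -0.17 to 0.23 for Pde4d, and within date 2 from -0.58 to 0.055 for Crem. After dmPGE2, Pde3b ran from -0.15 to 0.25 on date 1, from -0.033 to 0.14 in old mice and from -0.27 to 0.13 between the dates. Pde4a ran from -0.098 to 0.094 on date 2 and from -0.067 to 0.082 in old mice, and Pde4d from -0.14 to 0.026 on date 2.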
